A study of Mus musculus with 21 samples.

Results

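Microglia are the resident macrophages of the brain, and their RNA was compared between Fgg γ390–396A mutant mice and WT mice 1 d after controlled cortical impact (CCI), a model of traumatic brain injury. The comparison was defined by the column names of the deposited gene table, which gave 3 mutant and 3 WT libraries, 6 of 21 in the series. Every gene counted in those libraries was examined, and genes on chromosome 3, which carries Fgg, and their near-identical copies elsewhere in the genome were described apart from the rest. Other genes that have a near-identical copy are given with their lists. Among those named, these are Ftl1, Pcna, Ifit3, Itgb5, Itgam, Itgb2, Cd24a, A530064D06Rik, Ly6c2, Hbb-bs and Hbb-bt, and on chromosome 3 Fabp5, Dph5 and Gbp7. Their values are uncertain to the extent that reads were split between the copies.

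Mutant mice carried the Fgg γ390–396A allele, a germline knock-in present in every cell, so that their fibrinogen γ chain lacks the stretch bound by the integrin CD11b/CD18 while fibrin still forms. WT mice were C57BL/6. All mice were males of 17 to 24 weeks. The cells were sorted from a block of tissue across the lesion as 40000 live CD45lowCD11b+ cells per library, pooled from 2 brains. Sham libraries held microglia sorted in the same way from mice that had anesthesia, scalp incision and craniotomy but no cortical impact. They serve here as the reference without CCI, called uninjured below, and their labels give no genotype. No sham group is labelled as mutant, so a difference present before injury cannot be told apart from one that came with it. CD11b was itself the sorting antigen, and the allele lies on chromosome 3 together with a flanking segment that is bred with it, so the effect of the allele and of that segment cannot be told apart.

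Fibrinogen is a plasma protein made mainly in the liver. After damage to the blood-brain barrier it enters the tissue, is cut to fibrin, and is bound by CD11b/CD18 on microglia and other myeloid cells, a contact known to switch on inflammatory and oxidative genes. The comparison asked which microglial transcripts differ when fibrin cannot be bound through this motif. Homeostatic microglia express Tmem119, P2ry12, Selplg and Fcrls, and after injury they lower most of these genes while raising cytokines, chemokines and stress genes.

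Total counts ranged from 26815203 to 51875767 in mutant and from 23594176 to 36729567 in WT libraries, and the detection floor of 3 counts lay between 0.0448 and 0.121 CPM, which covers counting error only. CPM are counts divided by library totals that were scaled with TMM factors, and gene length had been divided out by the authors, so that levels can be set side by side between genes. Ribosomal RNA genes took 47.1% to 52.4% of mutant and 50.6% to 58.5% of WT libraries, and mitochondrial genes 29.1% to 37.2% and 33.6% to 41.3%. WT replicate 1 stood apart from the other WT libraries, with a TMM factor of 1.11 against 0.752 and 0.741 in WT replicates 2 and 3. The mutant factors were 1.29, 1.02 and 0.928, so WT replicate 1 lay within the mutant range and WT replicates 2 and 3 below it. Ribosomal RNA took 50.6% of WT replicate 1, but 57.9% and 58.5% of WT replicates 2 and 3, above every mutant library. Results that WT replicate 1 moves most are also given without it. In those, genotype and these library measures cannot be told apart. Fgg itself (GRCm38 chr3:83007724-83015049, + strand) had 6, 2 and 4 counts in the mutant libraries and 0 in every WT library, Fga had 0, 5 and 0 counts in the mutant and 0 in WT libraries, and Fgb had 0 in all 6. These levels check no label, because the allele replaces codons and does not remove the transcript. Its receptor subunits did not pass the test. Itgam, the gene of CD11b, stood at 354, 442 and 388 CPM in mutant replicates 1 to 3 and at 379, 433 and 392 CPM in WT replicates 1 to 3, and Itgb2, the gene of CD18, at 86.4 to 96.5 and 89.2 to 97.4 CPM.

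Few genes passed the test. With edgeR's quasi-likelihood test at a Benjamini-Hochberg adjusted p under 0.1 and an absolute log2 fold change above 1, 13 of 23815 genes were called (0.0546%). Of these, 8 were higher in the mutant (0.0336%) and 5 were lower (0.021%). Only 2 of the 13, Ptgs2 and Inhba, lay off chromosome 3 and had no near-identical copy, and both fell in the mutant. A further 5 lay on chromosome 3 (Fcrls, Ap1ar, Capza1, Rps3a1 and Gbp2b), and 8 had near-identical copies, namely 6 pseudogenes (Hist1h2al, Gm5900, Gm3608, Rps3a2, Rps3a3 and Rpl34-ps1) and again Rps3a1 and Capza1. At an unadjusted p under 0.05, 1209 genes differed, and in the gene groups below such genes are counted without being called changed. Among 19429 genes off chromosome 3 that are not pseudogenes, 2.73% were higher and 2.54% lower at that level, with a median log2 fold change of 0, and these shares are the background for the group counts. In bulk samples, fewer cells of a type and less RNA per cell cannot be told apart. Leaving out WT replicate 1 raised the count of calls from 13 to 89, with all 13 still among them, and leaving out WT replicate 3 lowered it to 6. Of the genes described below as uncalled, Selplg, Pdcd4, Gbp9, Gbp7, Arhgap27, Cd82, Siglech, Fam241a and P2ry12 were higher and Hmox1, Cd44, Alcam, S1pr1, Slc7a11, Fabp5 and A530064D06Rik lower past the threshold without WT replicate 1, with edgeR adjusted p of 0.0133 for Gbp9 to 0.0963 for Alcam, Fabp5 and Gbp7. DESeq2's Wald test called 104 genes, and of those described below as uncalled by edgeR these were Gm12666, Gbp9, Selplg, Pdcd4, Gpr165 and Fam241a, all higher, and Hmox1, A530064D06Rik, Cd24a, Alcam, Cd44, Ezr, Cxcl3, Cxcl2, Il1rn, Agpat4, Ccl3, Slc7a11, Acod1, Fabp5, Lgals3, Nr4a3, Pfkp, S1pr1 and Dph5, all lower.

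**Figure D1:**
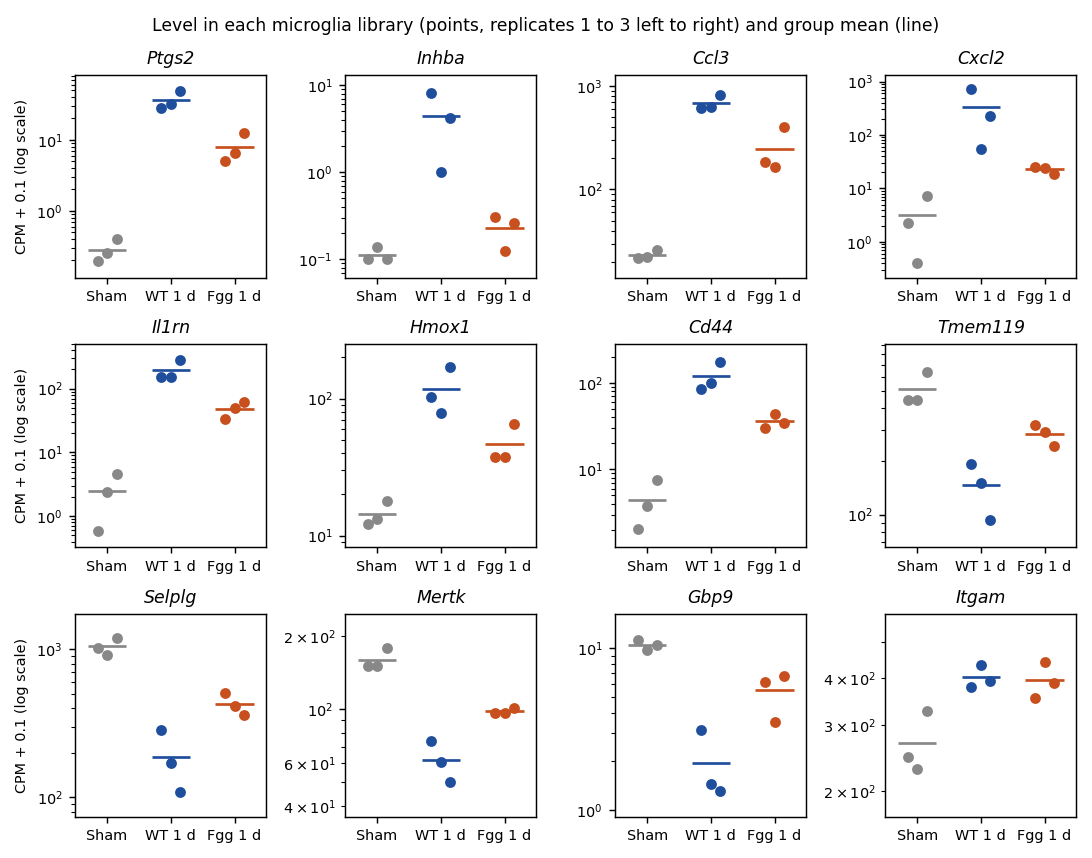
CPM plus 0.1 on a log axis for 12 genes in each of the 3 sham, 3 WT and 3 mutant microglia libraries, with 1 point per library and a line at the group mean. Ptgs2 lies between 4.86 and 12.5 CPM in the mutant and between 27.6 and 48.5 CPM in WT libraries at 1 d, and no point of either group reaches the other.

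Ptgs2 encodes cyclooxygenase-2, the inducible enzyme that commits arachidonic acid to prostaglandins, and it was 1 of the 2 called genes off chromosome 3 without a near-copy. Ptgs2 (ENSMUSG00000032487, GRCm38 chr1:150100031-150108227, + strand) stood at 4.86, 6.42 and 12.5 CPM in mutant replicates 1 to 3 and at 27.6, 32.2 and 48.5 CPM in WT replicates 1 to 3. Every WT library was above every mutant library. The means were 7.94 ± 4.06 CPM (SD, n = 3) in the mutant and 36.1 ± 10.97 CPM (SD, n = 3) in WT, a log2 fold change of -2.20 ± 0.40 (SE) with an adjusted p of 0.063 in edgeR's quasi-likelihood test. Sham microglia held 0.183 ± 0.107 CPM (SD, n = 3), so the mutant libraries still lay far above the uninjured level. The call was lost in 7 of 19 alternatives, among them the fit of the 6 libraries alone and the fits without mutant replicate 1, mutant replicate 2, WT replicate 2 or WT replicate 3, where the adjusted p was 0.337, 0.423, 0.116 and 0.462. It was also lost with near-copies summed with their coding gene, at an edgeR adjusted p of 0.216. The unadjusted p there was 2.88e-05, against 2.91e-05 in the main fit, so the loss came with the adjustment over all genes. The log2 fold change stayed between -2.68 and -1.93.

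The other genes of prostaglandin and leukotriene synthesis did not follow Ptgs2 as a group. Of 21 tested members off chromosome 3, 11 had a fold change above 0 and 9 below, the median log2 fold change was 0.07 (0.22 without WT replicate 1), and 3 were higher and 2 lower at an unadjusted p under 0.05. Ptger4, a receptor for prostaglandin E2, stood at 5.68, 4.61 and 4.38 CPM in the mutant and at 7.79, 10.1 and 10.7 CPM in WT libraries, without overlap (log2 fold change -0.96 ± 0.25 SE, edgeR adjusted p 0.624). Alox5ap, which presents arachidonic acid to 5-lipoxygenase, stood the other way at 233, 258 and 255 CPM in the mutant and 219, 154 and 164 CPM in WT libraries. Ptgs1, the constitutive cyclooxygenase, and Ltc4s, leukotriene C4 synthase, were chosen after their values were seen. Ptgs1 stood at 350, 311 and 274 CPM in the mutant and 280, 192 and 131 CPM in WT libraries, which overlap. Ltc4s stood at 115, 78.2 and 84.3 CPM against 60.2, 49.1 and 30.4 CPM, without overlap, and neither passed the test (edgeR adjusted p 0.89 for both).

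Inhba encodes the βA subunit of activin A, a ligand of the TGF-β family. It was near the detection floor in mutant and sham microglia and above it in every WT library after CCI. Inhba (ENSMUSG00000041324, GRCm38 chr13:16011851-16031621, + strand) had 14, 1 and 4 counts in mutant replicates 1 to 3 and 211, 25 and 106 counts in WT replicates 1 to 3, or 0.209, 0.0252 and 0.161 CPM against 8.05, 0.905 and 4.14 CPM. The WT libraries spread widely, with replicate 2 lowest, but every WT library exceeded every mutant library. The log2 fold change was -4.94 ± 0.96 (SE), with an adjusted p of 0.0991 in edgeR's quasi-likelihood test, just inside the threshold, and Inhba was still called in 8 of 19 alternatives, over which its log2 fold change ranged from -5.69 to -4.14. Without mutant replicate 1, 2 or 3 or WT replicate 3 the adjusted p was 0.332, 0.477, 0.370 and 0.345. It was 0.134 without pseudogenes, 0.160 without chromosome 3 and 0.216 with near-copies summed with their coding gene. The unadjusted edgeR p in these 3 fits was 5.39e-05 to 5.72e-05, against 5.41e-05 in the main fit. The activin and TGF-β list around it did not move in 1 direction. Of 29 tested members off chromosome 3, 15 had a fold change above 0 and 11 below, 2 were higher and 1 lower at an unadjusted p under 0.05, and the median was 0.02. The 2 were Tgfbr1, the type I TGF-β receptor, at 211, 156 and 128 CPM in the mutant and 136, 110 and 73.3 CPM in WT libraries, and Smad7, an inhibitor of the pathway, at 14.5, 12.03 and 12.3 CPM against 11.8, 9.48 and 8.74 CPM. Tgfbr1 levels overlapped between the groups, and Smad7 levels did not.

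The promoters of both genes are shown because these were the only called genes away from chromosome 3 and without a near-copy. Each spans 250 bases before to 50 bases after the start of the transcript (RefSeq, GRCm38.p6, + strand), at chr1:150099781-150100080 for Ptgs2 and chr13:16011601-16011900 for Inhba. Capitals mark the motifs found by searching both strands.
Ptgs2: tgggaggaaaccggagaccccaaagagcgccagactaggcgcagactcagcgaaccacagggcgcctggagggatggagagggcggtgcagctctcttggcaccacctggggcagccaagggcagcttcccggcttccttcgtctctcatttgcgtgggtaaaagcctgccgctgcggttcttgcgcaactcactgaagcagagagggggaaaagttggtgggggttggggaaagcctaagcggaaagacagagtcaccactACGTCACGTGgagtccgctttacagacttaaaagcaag
Inhba: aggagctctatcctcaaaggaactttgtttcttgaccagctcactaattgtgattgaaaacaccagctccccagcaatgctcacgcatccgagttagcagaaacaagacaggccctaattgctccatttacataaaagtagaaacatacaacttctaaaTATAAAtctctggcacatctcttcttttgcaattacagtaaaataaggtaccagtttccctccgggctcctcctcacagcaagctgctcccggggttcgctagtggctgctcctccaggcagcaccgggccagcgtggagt
In the Ptgs2 promoter the capitals hold ACGTCA, the half-site of the cyclic AMP response element, and CACGTG, an E-box, which overlap. ACGTCA was found in 7.51% and CACGTG in 7.15% of 32851 promoters of the same length. The Inhba promoter held neither, and its capitals mark TATAAA, the core of the TATA-box, found in 13.6% of promoters. TGANTCA, the AP-1 motif (7.81% of promoters), and GGGANTTCC, an NF-kB motif (1.68%), were in neither window. A match or its absence in these letters is a description of the sequence only.

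Neutrophil-attracting and inflammatory chemokines were lower in the mutant libraries as values, without a call in edgeR. Without WT replicate 1 edgeR called 1 chemokine lower, and DESeq2's Wald test called Cxcl2, Cxcl3 and Ccl3 lower (adjusted p 0.00446, 0.0982 and 0.0249). Among 28 chemokines and chemokine receptors tested off chromosome 3, 20 had a fold change below 0, the median log2 fold change was -0.63, and 9 were lower and 1 higher at an unadjusted p under 0.05. Cxcl2 and Cxcl3 encode ligands of the neutrophil receptor CXCR2. Cxcl2 stood at 25.6, 23.8 and 18.4 CPM in mutant replicates 1 to 3 and at 716, 54.7 and 228 CPM in WT replicates 1 to 3. Cxcl3 stood at 1.402, 2.06 and 0.121 CPM against 41.7, 4.96 and 15.6 CPM. Neither gene overlapped between the groups, WT replicate 1 was highest for both, and the WT spread was large (log2 fold changes -3.88 ± 0.94 and -4.05 ± 0.95 SE, edgeR adjusted p 0.411 and 0.336). Without WT replicate 1 the log2 fold changes were -2.64 for Cxcl2 and -3.03 for Cxcl3. Ccl3, which attracts monocytes and lymphocytes, stood at 184, 163 and 397 CPM in the mutant and 609, 621 and 824 CPM in WT libraries, again without overlap, with a log2 fold change of -1.47 ± 0.39 (SE) and an adjusted p of 0.664 in edgeR. Its sham mean was 23.4 CPM, below all 6 injured libraries.

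Cxcl9, a chemokine induced by interferon-γ and named after its values were seen, was at 3.07, 2.06 and 9.52 CPM in the mutant and 2.02, 0 and 0.546 CPM in WT libraries, without overlap and with the highest value in mutant replicate 3 (edgeR adjusted p 0.89). Cytokines of the IL-1, TNF and IL-6 families showed a weaker shift, with 15 of 23 tested members below 0, a median log2 fold change of -0.28, and 3 lower and 2 higher at an unadjusted p under 0.05. Without WT replicate 1 that median was 0.01. Il1rn, the natural antagonist of the IL-1 receptor, stood at 33.0, 49.9 and 61.1 CPM in the mutant and 151, 152 and 282 CPM in WT libraries, with no overlap (log2 fold change -2.02 ± 0.50 SE, edgeR adjusted p 0.448). Il10ra, a subunit of the interleukin-10 receptor, stood at 42.4, 28.6 and 34.4 CPM against 30.4, 19.2 and 18.3 CPM. Il1b and Tnf, pro-inflammatory cytokines, are named after their values were seen. Il1b stood at 43.5, 22.7 and 54.7 CPM in the mutant and 144, 33.2 and 66.5 CPM in WT libraries, and its groups overlapped. Tnf stood at 30.0, 21.2 and 43.1 CPM against 66.2, 51.1 and 46.2 CPM, without overlap, and its edgeR adjusted p was 0.89.

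Genes for heme breakdown, iron storage and redox balance were lower in the mutant libraries as values. Of 22 heme and iron genes tested, 19 had a fold change below 0, the median was -0.32, and 4 were lower and 0 higher at an unadjusted p under 0.05. Hmox1 encodes heme oxygenase 1, which breaks heme down to biliverdin, iron and carbon monoxide. It stood at 37.3, 37.4 and 65.6 CPM in mutant replicates 1 to 3 and at 103, 78.7 and 169 CPM in WT replicates 1 to 3, and every WT library was above every mutant library. Its log2 fold change was -1.32 ± 0.28 (SE), with an adjusted p of 0.208 in edgeR. When replicate numbers were blocked, the adjusted p was 0.0566 and Hmox1 passed the test. Ftl1, the ferritin light chain, stood at 1225, 2076 and 2325 CPM in the mutant and 2187, 3237 and 4440 CPM in WT libraries, and Blvrb, a biliverdin reductase, at 24.8, 26.8 and 36.4 CPM against 33.9, 43.1 and 51.0 CPM. Both overlapped between the groups through the highest mutant and the lowest WT library.

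Among 31 genes of reactive oxygen species metabolism and antioxidant defence, 23 were below 0, the median log2 fold change was -0.33, and 8 were lower and 1 higher at an unadjusted p under 0.05. Acod1 makes itaconate in activated macrophages. It stood at 2.95, 0.831 and 0.804 CPM in the mutant and 24.4, 2.68 and 14.8 CPM in WT libraries, where mutant replicate 1 lay above WT replicate 2 (edgeR adjusted p 0.274). Srxn1, which restores oxidised peroxiredoxins, stood at 2.67, 4.15 and 4.02 CPM against 4.66, 9.34 and 17.8 CPM, without overlap. Slc7a11, the cystine importer that feeds glutathione synthesis, lies on chromosome 3 and is described with that chromosome. The single member higher at an unadjusted p under 0.05 was Ncf1, a cytosolic subunit of the NADPH oxidase, named after its value was seen, with a log2 fold change of 0.47 and an edgeR adjusted p of 0.89.

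Homeostatic microglial genes stood higher in the mutant libraries as values. Of 32 tested members off chromosome 3, 31 had a fold change above 0, the median log2 fold change was 0.55, and 12 were higher and 0 lower at an unadjusted p under 0.05. None was called by edgeR, and 2 were called higher without WT replicate 1, while DESeq2's Wald test called Selplg (adjusted p 0.0179). In DESeq2's Wald test Mertk and Tmem119 had adjusted p of 0.0164 and 0.0883. Their log2 fold changes of 0.64 and 0.94 in that fit kept them below the threshold of 1. In 17 of the 32 the 3 mutant libraries were all above the 3 WT libraries, where among 9647 protein coding genes off chromosome 3 with a mean of at least 1 CPM the mutant libraries were all higher in 8.32% and all lower in 3.8%. Without WT replicate 1 the counts at an unadjusted p were again 12 and 0. Selplg, the ligand of P-selectin, stood at 506, 416 and 359 CPM in mutant replicates 1 to 3 and 287, 170 and 108 CPM in WT replicates 1 to 3. Cd164, a sialomucin, stood at 213, 172 and 182 CPM against 141, 112 and 96.5 CPM. Both separated without overlap (log2 fold changes 1.18 ± 0.28 and 0.70 ± 0.15 SE, edgeR adjusted p 0.385 and 0.208). Tmem119, a membrane protein used as a microglial marker, stood at 321, 293 and 245 CPM in the mutant and 194, 151 and 93.7 CPM in WT libraries. Siglech, a lectin of microglia, stood at 375, 193 and 227 CPM against 206, 93.2 and 52.6 CPM, and overlapped through mutant replicate 2. Mertk, a receptor for the engulfment of dead cells, stood at 96.4, 96.0 and 101 CPM in the mutant and 74.1, 60.6 and 50.004 CPM in WT libraries, with a narrow spread in the mutant (log2 fold change 0.67 ± 0.17 SE, edgeR adjusted p 0.467). All of these genes had sham means above every injured library, 509 CPM for Tmem119 and 1043 CPM for Selplg, so the mutant means lay between WT and uninjured levels.

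Coding genes outside the lists above that stood higher without overlap included Serinc3, Vsir, an immune checkpoint receptor, Pdcd4, an inhibitor of translation, Cd82, a tetraspanin, Arhgap27, Foxj3 and Gpr165. Serinc3 stood at 653, 515 and 546 CPM in the mutant and 420, 350 and 270 CPM in WT libraries, and Pdcd4 at 11.6, 6.34 and 6.83 CPM against 5.23, 2.68 and 2.69 CPM. Their edgeR adjusted p ran from 0.336 to 0.624, and the 12 coding genes of smallest p in this direction held no edgeR call. On the lower side stood Alcam, Cd44, an adhesion receptor that is also in the adhesion and monocyte lists, Ezr, which ties membranes to actin, Agpat4, an enzyme of phospholipid synthesis, Cd24a and A530064D06Rik. Cd44 stood at 30.0, 43.4 and 34.2 CPM in the mutant and 84.9, 99.3 and 172 CPM in WT libraries (log2 fold change -1.73 ± 0.38 SE, edgeR adjusted p 0.243), and its sham mean was 4.34 CPM. Alcam stood at 5.30, 3.47 and 2.69 CPM against 10.2, 8.03 and 15.4 CPM. Cd24a and A530064D06Rik have near-copies, Gm6212 and B430306N03Rik, which could share their reads, and when replicate numbers were blocked A530064D06Rik passed the test (edgeR adjusted p 0.026).

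Interferon-stimulated genes were higher in mutant libraries as values, but the shift rested on mutant replicate 3. Of 30 tested members, 28 had a fold change above 0, the median log2 fold change was 0.70, and 5 were higher and 0 lower at an unadjusted p under 0.05. Without mutant replicate 3 the median was -0.13. Ifit3 stood at 7.61, 13.2 and 51.1 CPM in the mutant and 5.27, 6.95 and 14.4 CPM in WT libraries, and Mx1 at 2.18, 1.06 and 7.27 CPM against 1.60, 0.217 and 1.37 CPM. Both overlapped, with replicate 3 highest in the mutant. The guanylate-binding proteins, GTPases induced by interferon-γ that attack intracellular microbes, had 5 members tested off chromosome 3, all 5 above 0, and 2 higher at an unadjusted p under 0.05, with a median log2 fold change of 1.53 that was -0.07 without mutant replicate 3. Only 1 of the 5, Gbp9, had a mean of at least 1 CPM, and the median of 1.53 is the value of Gbp9 itself. Without mutant replicate 3 the log2 fold change of Gbp9 was 1.35, so the median of -0.07 was no longer its value. Gbp9 stood at 6.09, 3.37 and 6.67 CPM in mutant replicates 1 to 3 and 3.02, 1.34 and 1.21 CPM in WT replicates 1 to 3, without overlap, and its log2 fold change was 1.53 ± 0.33 (SE) with an edgeR adjusted p of 0.208. Under the block by replicate number its adjusted p was 0.0566, past the threshold. Antigen presentation genes had 20 of 23 members above 0, a median of 0.26, and 3 higher and 0 lower at an unadjusted p under 0.05. These 3 were Psmb9, an immunoproteasome subunit, H2-Oa and H2-DMa, which regulate the loading of MHC class II molecules. Psmb9 stood at 17.9, 16.6 and 21.5 CPM in the mutant and 12.9, 11.8 and 7.38 CPM in WT libraries, without overlap.

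**Figure D2:**
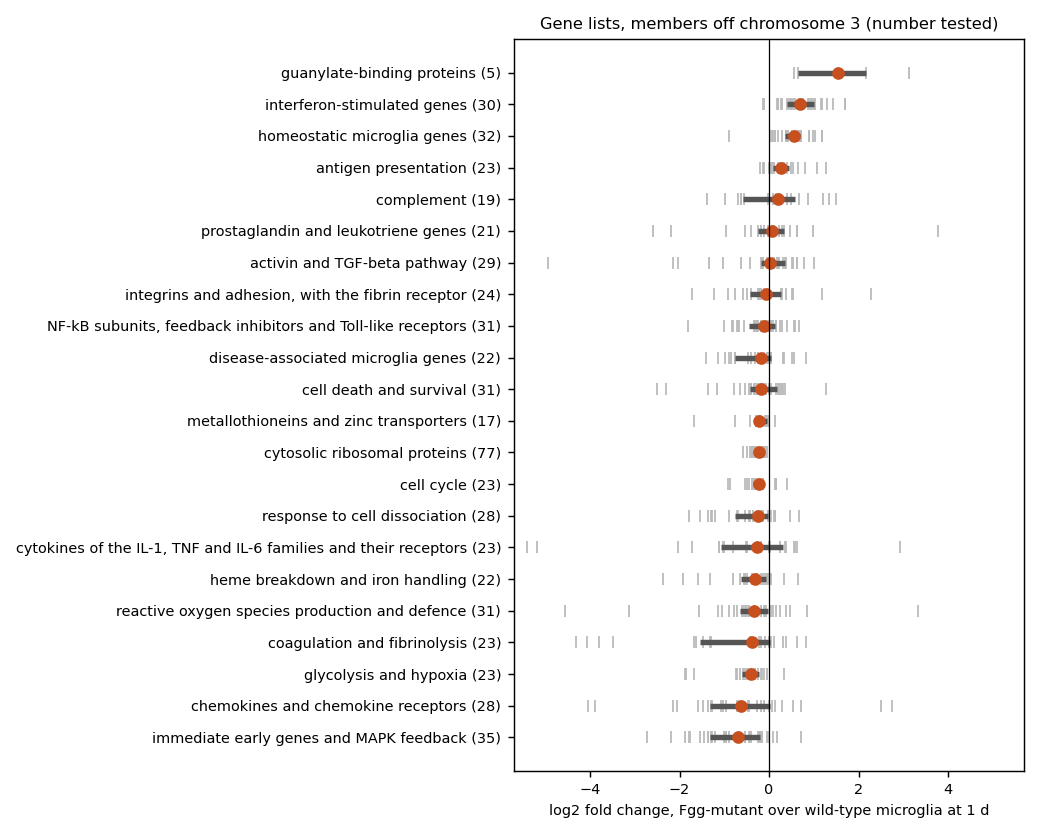
Log2 fold change of each list member off chromosome 3 in mutant against WT microglia at 1 d (ticks), with the median (point) and the middle 50% of members (bar) per list. The homeostatic list sits at 0.55, the chemokine list at -0.63 and the immediate-early list at -0.69.

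Immediate-early genes, which respond to stimuli within minutes, were lower in the mutant libraries as values. Of 35 tested members, 32 had a fold change below 0, the median log2 fold change was -0.69, and 9 were lower and 1 higher at an unadjusted p under 0.05. In 10 of the 29 members with a mean of at least 1 CPM all mutant libraries lay below all WT libraries. Among the 9647 protein coding genes off chromosome 3 with such a mean, this share was 3.8%. Sham libraries varied widely. All 36 members summed to 1953, 558 and 597 CPM in sham replicates 1 to 3, and to 1262 to 1454 CPM in WT libraries. By the median over members of log2(CPM + 1) minus the sham mean, sham replicate 1 stood at 0.43 and WT libraries at 0.49 to 0.77. Nr4a3, an orphan nuclear receptor, stood at 1.80, 1.76 and 2.69 CPM in the mutant and 12.2, 6.48 and 9.76 CPM in WT libraries, and Atf3, a stress-induced transcription factor, at 9.88, 7.60 and 10.8 CPM against 23.2, 20.119 and 22.0 CPM. Dusp1, a phosphatase that switches off MAP kinases, stood at 31.8, 10.8 and 41.9 CPM against 94.9, 63.8 and 133 CPM. All 3 separated without overlap (edgeR adjusted p 0.715, 0.813 and 0.867). Genes known to respond to the dissociation of tissue, a list that shares Dusp1, Atf3 and Nr4a1 with the immediate-early genes, had 22 of 28 members below 0, a median of -0.25, and 5 lower and 0 higher at an unadjusted p under 0.05. The part of dissociation in these values was not tested. NF-kB pathway genes lay close to 0, with a median of -0.12 over 31 members and 3 lower and 0 higher at an unadjusted p under 0.05. Traf1 stood at 0.507, 1.59 and 0.321 CPM in the mutant and 4.47, 1.48 and 2.65 CPM in WT libraries.

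Adhesion and coagulation genes were mixed. Of 24 integrins and other adhesion genes, 17 were below 0, the median was -0.08, and 3 were lower and 2 higher at an unadjusted p under 0.05. The 2 were Selplg and Itgb5, a subunit of the vitronectin receptor, at 105, 125 and 98.5 CPM in the mutant and 79.2, 82.2 and 65.3 CPM in WT libraries. Coagulation and fibrinolysis genes had 15 of 23 members below 0, a median of -0.39, and 6 lower and 1 higher at an unadjusted p under 0.05. Thbs1, thrombospondin 1, stood at 13.2, 13.8 and 14.1 CPM in the mutant and 54.7, 17.8 and 55.2 CPM in WT libraries. Fn1, fibronectin, stood at 39.3, 26.2 and 25.6 CPM against 81.5, 142 and 70.3 CPM, and Anxa2, a cell-surface partner of plasminogen activation, at 11.4, 7.73 and 8.52 CPM against 21.1, 14.0 and 33.1 CPM. All 3 separated without overlap, with edgeR adjusted p between 0.795 and 0.813. Thbs1 and Fn1 are also monocyte markers.

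Glycolysis and hypoxia genes had 22 of 23 members below 0, a median log2 fold change of -0.41, and 8 lower and 0 higher at an unadjusted p under 0.05. Pfkp, the platelet form of phosphofructokinase, stood at 1.402, 0.780 and 1.33 CPM in the mutant and 6.37, 1.59 and 3.36 CPM in WT libraries, and Egln3, an oxygen sensor, at 0.597, 0.629 and 0.844 CPM against 2.63, 0.688 and 4.22 CPM. Ribosomal protein genes were below 0 in 77 of 77, with a median of -0.22 and 3 lower at an unadjusted p under 0.05. Without WT replicate 1 these counts were 12 lower for glycolysis and 18 lower for ribosomal proteins, where the background was 5.34% higher and 4.04% lower. Near-copies were searched only for called and named genes, so the part of reads split with copies in the ribosomal protein list was not tested. Cell cycle genes had 19 of 23 below 0 and a median of -0.23, and 1, Pcna, the sliding clamp of DNA polymerase, was lower at an unadjusted p under 0.05, at 101, 113 and 105 CPM against 120, 159 and 136 CPM. Zinc and metallothionein genes had 15 of 17 below 0, and their leading member Mt2 stood at 9.55, 25.2 and 38.9 CPM against 30.4, 74.98 and 129 CPM.

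Disease-associated microglial genes had 14 of 22 members below 0, a median of -0.18, and 3 lower and 0 higher at an unadjusted p under 0.05. Lgals3, galectin 3, stood at 29.8, 49.2 and 56.0 CPM in the mutant and 65.8, 89.5 and 204 CPM in WT libraries, without overlap, and Plin2, a coat protein of lipid droplets, at 39.5, 94.97 and 98.4 CPM against 93.2, 147 and 271 CPM. Cell death genes had 20 of 31 below 0, a median of -0.19, and 4 lower and 0 higher. Mlkl, the executor of necroptosis, stood at 0.179, 0.277 and 0.562 CPM in the mutant and 0.344, 0.977 and 4.22 CPM in WT libraries. Cdkn1a, a cell cycle inhibitor of the p53 response, stood at 228, 414 and 673 CPM against 542, 747 and 979 CPM. Both overlapped between the groups. Complement genes had 12 of 19 above 0, a median of 0.21 and 1 lower at an unadjusted p under 0.05, which was C3ar1, the receptor of C3a, at 271, 449 and 352 CPM against 310, 621 and 728 CPM.

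Markers of other cells that a sort of CD45lowCD11b+ cells could hold were summed per library over the members off chromosome 3. The 15 monocyte markers summed to 158, 94.5 and 94.2 CPM in mutant replicates 1 to 3 and 307, 273 and 324 CPM in WT replicates 1 to 3, and sham libraries held 11.7 to 79.0 CPM. Without Cd44, Fn1 and Thbs1 the other 12 summed to 75.2, 11.1 and 20.3 CPM in the mutant and 86.0, 14.6 and 26.3 CPM in WT libraries, which overlap. Those 3 genes are ones that separated the groups, so the overlap of the rest follows in part from leaving them out. With S100a4, S100a6 and Chil3 of chromosome 3 (log2 fold changes -1.30, -1.15 and -0.32), all 18 markers summed to 259, 111 and 111 CPM in the mutant. In WT libraries they summed to 500, 314 and 396 CPM, without overlap. Of 15 monocyte markers tested off chromosome 3, 12 were below 0 with a median of -0.50, and without WT replicate 1 the median was 0.50. The defining markers Ly6c2 and Ccr2, named after their values were seen, did not separate. Ly6c2 stood at 9.07, 0.227 and 0.362 CPM in the mutant and 5.34, 0.109 and 0.507 CPM in WT libraries, and Ccr2 at 27.7, 1.41 and 2.65 CPM against 27.8, 1.99 and 5.27 CPM, so that replicate 1 was highest in both groups. Cd44, Fn1 and Thbs1 belong to the monocyte list, so the part of monocytes in their values was not tested. Neutrophil markers summed to 151, 89.3 and 84.2 CPM in the mutant and 100.3, 56.8 and 78.0 CPM in WT libraries, with Elane at 0 in all 6, and their median log2 fold change was 0, or 0.59 without WT replicate 1. These sums leave out S100a8 and S100a9, which lie on chromosome 3 (log2 fold changes -1.98 and -1.90, edgeR adjusted p 0.89). With them the direction turned, at 440, 134 and 106 CPM in the mutant and 848, 175 and 570 CPM in WT libraries. Border macrophage markers summed to 330, 608 and 460 CPM against 520, 756 and 1040 CPM. The sums of both lists overlapped between the groups.

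The markers of other brain and blood cells had low sums. Lymphocyte markers summed to 3.01 to 6.65 CPM in the mutant and 3.44 to 6.48 CPM in WT libraries, with Nkg7, Ncr1 and Cd8a at 0, and neuronal markers to 3.37 to 4.03 and 3.59 to 6.22 CPM. Oligodendrocyte markers summed to 24.6 to 31.2 against 24.7 to 47.6 CPM, astrocyte markers to 17.4 to 23.8 against 13.5 to 21.5 CPM, and endothelial markers to 10.7 to 12.96 against 8.32 to 20.3 CPM. Red cell markers summed to 0.13 to 12.5 against 0.18 to 35.6 CPM, with Slc4a1 at 0. By contrast the 8 microglial markers off chromosome 3 summed to 5432, 5162 and 5053 CPM in the mutant and 4156, 4169 and 3118 CPM in WT libraries, below the 7162 to 8678 CPM of sham libraries, and 8 of 8 had a fold change above 0.

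**Figure D3:**
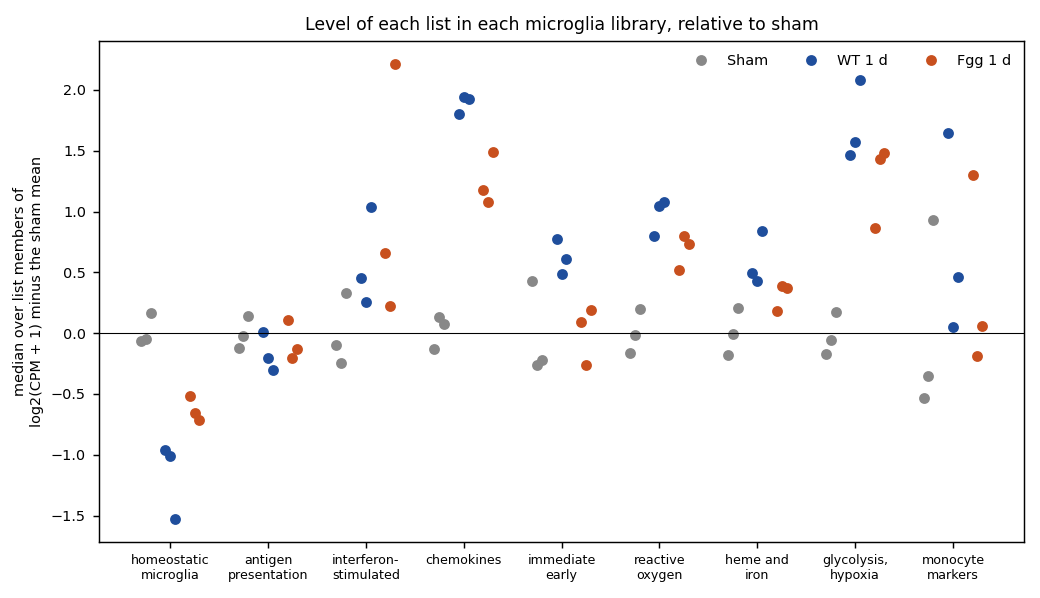
Level of 9 gene lists in the 3 sham, 3 WT and 3 mutant microglia libraries, as the median over members of log2(CPM + 1) minus the sham mean, 1 point per library. The chemokine list lies between 1.08 and 1.49 in the mutant and between 1.80 and 1.94 in WT libraries.

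Genes on chromosome 3 are given apart, because the allele and its flanking segment lie there. Of 475 protein coding genes on chromosome 3 with a mean of at least 1 CPM, 54 (11.4%) had an unadjusted p under 0.05, against 644 of 9647 (6.68%) on the other chromosomes, and 26 were higher and 28 lower. Of the 54, 18 (33.3%) also had an unadjusted p under 0.05 in the same direction in microglia at 7 d, and 18 (33.3%) in infiltrating myeloid cells. On the other chromosomes 58 of 644 (9.01%) and 87 of 644 (13.5%) did so. In every pair 11 of the 54 (20.4%) did so, against 6 of 644 (0.932%) on the other chromosomes. The genes at that level lay on both sides of Fgg but unevenly. Of the 11 at that level in every pair, Fabp5 lay 73.0 Mb before Fgg. The others lay beyond Fgg, from Arfip1 at 1.57 Mb to Bank1 at 53.3 Mb. Between 20 and 10 Mb before Fgg 0 of 16 genes were at that level in microglia at 1 d, and between 60 and 70 Mb beyond it 0 of 21. Between 40 and 50 Mb beyond Fgg, 9 of 23 genes (39.1%) were at that level, within the first 10 Mb beyond it 13 of 88 (14.8%), and in the 10 Mb before it 0 of 9.

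Fcrls, a Fc receptor-like gene used as a microglial marker, was the only homeostatic gene to be called, and it fell while 31 of the 32 members elsewhere in the genome stood above 0. Fcrls (ENSMUSG00000015852, GRCm38 chr3:87250758-87263738, - strand) lies 4.26 Mb from Fgg. It stood at 196, 281 and 230 CPM in mutant replicates 1 to 3 and at 901, 1226 and 1074 CPM in WT replicates 1 to 3, and sham libraries held 702 ± 100.2 CPM (SD, n = 3). Every mutant library was therefore below the WT and sham libraries. The log2 fold change was -2.18 ± 0.29 (SE), with an adjusted p of 0.00143 in edgeR's quasi-likelihood test, and Fcrls was called in 18 of 18 alternatives that kept its chromosome. Its log2 fold change was -1.62 (edgeR adjusted p 0.0401) in microglia at 7 d and -1.33 (adjusted p 0.0614) in infiltrating myeloid cells at 1 d. P2ry12, the purinergic receptor that guides microglial processes, also lies on chromosome 3 and stood the other way, at 1632, 724 and 727 CPM in the mutant and 659, 357 and 169 CPM in WT libraries, without overlap (log2 fold change 1.38 ± 0.43 SE, edgeR adjusted p 0.802).

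Ap1ar, a regulator of vesicle traffic and actin (chr3:127807007-127837523, - strand), rose in the mutant. It stood at 24.3, 28.1 and 28.6 CPM against 13.1, 11.1 and 9.68 CPM in WT libraries, without overlap (log2 fold change 1.25 ± 0.22 SE, edgeR adjusted p 0.0387), and its log2 fold change was 1.42 in infiltrating myeloid cells (adjusted p 0.00431). Without mutant replicate 2 or 3 or WT replicate 2 or 3 its adjusted p was 0.156, 0.195, 0.171 and 0.462, which ends the call. Gbp2b (chr3:142594847-142619179, + strand), a guanylate-binding protein, was detected in the mutant at 1.51, 0.453 and 3.25 CPM and had 0 counts in every WT library. It was at least 14.8-fold higher in the mutant than the WT floor of 3 counts per library allows, with an edgeR adjusted p of 0.0859. Under the block by replicate number its adjusted p was 0.122, which ends the call, and its near neighbour Gbp7 stood at 23.4, 19.9 and 27.7 CPM against 16.4, 9.55 and 7.42 CPM, without overlap (adjusted p 0.752). Gbp2b was also not called without mutant replicate 1 or 3 or WT replicate 2 or 3, with adjusted p of 0.175 to 0.462.

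Below the threshold stood S1pr1, a sphingosine 1-phosphate receptor, at 3.09, 4.53 and 4.18 CPM in the mutant and 9.01, 12.1 and 11.7 CPM in WT libraries (log2 fold change -1.48 ± 0.29 SE, edgeR adjusted p 0.101). Slc7a11 stood at 1.64, 3.67 and 3.29 CPM against 7.67, 7.71 and 28.9 CPM, with the same adjusted p, and under the block by replicate number its adjusted p was 0.0694, past the threshold. Fabp5, a fatty acid binding protein of lipid-laden microglia, stood at 4.12, 3.80 and 4.02 CPM against 7.63, 10.7 and 9.76 CPM (adjusted p 0.336), and at 7 d its log2 fold change was -1.86 with an adjusted p of 0.0149. Dph5, an enzyme of diphthamide synthesis, stood at 6.37, 5.92 and 5.30 CPM against 12.9, 14.4 and 12.1 CPM, and Fam241a at 1.84, 1.49 and 3.86 CPM against 0.840, 0.289 and 0.586 CPM. Each of these 5 genes separated the groups without overlap.

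**Figure D4:**
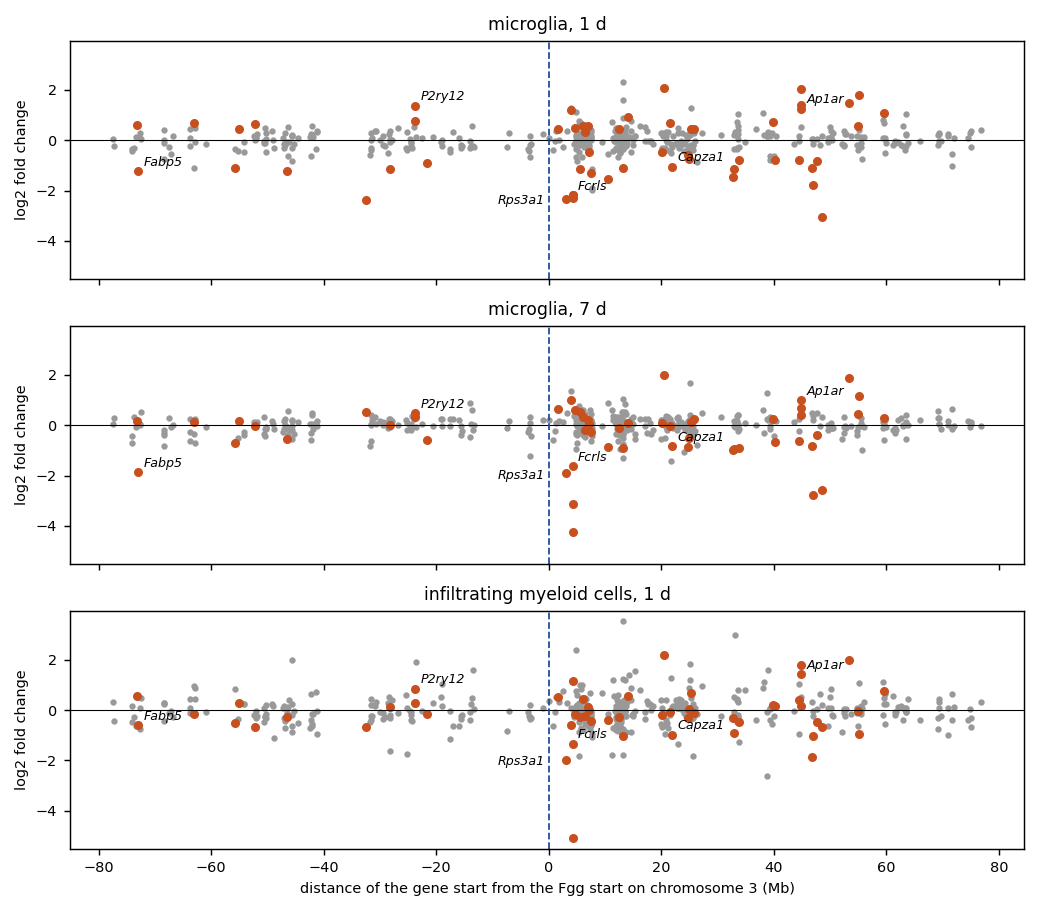
Log2 fold change of 475 coding genes on chromosome 3 in mutant against WT cells, plotted by distance from the start of Fgg in Mb, 1 point per gene. The upper panel shows microglia at 1 d, the others microglia at 7 d and infiltrating myeloid cells, and orange points had an unadjusted p under 0.05 in microglia at 1 d. Rps3a1 at -2.32 and Fcrls at -2.18 lie 3.14 and 4.26 Mb from Fgg, and Ap1ar at 1.25 lies 44.8 Mb from it.

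Copies of chromosome 3 genes on other chromosomes made up 6 of the 8 near-copy calls, and all 6 rose. A processed pseudogene is a copy of a spliced transcript set into another chromosome, and reads of the parent and the copy can be assigned to either where their letters agree. Stretches of 60 coding bases are shown for 4 parents and their copies to show how few letters tell them apart. Positions count from 1 at the first coding base, sequences are read 5′ to 3′ on the coding strand, and capitals mark the positions at which the sequences shown differ. Bases 628 to 687 are shown for Rps3a1, 102 to 161 for Rpl34, 513 to 572 for Capza1 and 81 to 140 for Lamtor3.
Rps3a1: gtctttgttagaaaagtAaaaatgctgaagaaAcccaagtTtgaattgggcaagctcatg
Rps3a2: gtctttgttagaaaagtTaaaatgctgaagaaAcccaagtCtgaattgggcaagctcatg
Rps3a3: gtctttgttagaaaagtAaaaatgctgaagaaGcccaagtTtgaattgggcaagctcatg
Rpl34: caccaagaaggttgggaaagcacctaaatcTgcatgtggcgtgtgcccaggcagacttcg
Rpl34-ps1: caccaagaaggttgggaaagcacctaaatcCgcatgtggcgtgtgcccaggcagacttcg
Capza1: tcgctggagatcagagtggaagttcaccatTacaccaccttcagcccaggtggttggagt
Gm3608: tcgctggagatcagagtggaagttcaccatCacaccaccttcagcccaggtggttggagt
Lamtor3: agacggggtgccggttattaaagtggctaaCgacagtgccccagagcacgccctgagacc
Gm5900: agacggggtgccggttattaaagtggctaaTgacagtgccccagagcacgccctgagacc
Over the coding sequence, Rps3a2 differed from Rps3a1 by 4 substitutions in 792 bases (T216C, T534C, A645T and T668C) and Rps3a3 by 9 in 795 bases. Rpl34-ps1 differed from Rpl34 by T132C and C318G in 354 bases. Gm3608 differed from Capza1 by T543C, A664G and A760G in 860 aligned bases, and Gm5900 from Lamtor3 by C111T and G336A in 375 bases. The parent's base is given first. Identity over these lengths was 98.87% to 99.65%.

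Rps3a1, a protein of the small ribosomal subunit (chr3:86137940-86142702, - strand), stood at 91.1, 122 and 137 CPM in mutant replicates 1 to 3 and 570, 601 and 581 CPM in WT replicates 1 to 3, a log2 fold change of -2.32 ± 0.20 (SE) with an edgeR adjusted p of 2.42e-06. Its copy Rps3a3 (chr13:108670603-108671397, + strand) stood at 211, 284 and 303 CPM against 5.61, 2.75 and 2.97 CPM. Its other copy Rps3a2 (chr14:88123017-88123808, - strand) stood at 216, 244 and 274 CPM against 31.3, 19.4 and 14.6 CPM. The copies therefore rose where the parent fell, with log2 fold changes of 6.14 ± 0.44 and 3.49 ± 0.30 (SE) and edgeR adjusted p of 4.03e-07 and 2.42e-06. The summed family was 630 ± 98.5 CPM (SD, n = 3) in the mutant and 611 ± 12.5 CPM (SD, n = 3) in WT, a log2 fold change of 0.04 with an edgeR adjusted p of 1. The copies took 80.9% to 82.5% of the family in the mutant and 3.15% to 6.51% in WT libraries.

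Capza1, an actin-capping subunit (chr3:104822779-104864505, - strand), stood at 54.2, 68.8 and 61.6 CPM in the mutant and 95.5, 145 and 142 CPM in WT libraries and fell (log2 fold change -1.05 ± 0.19 SE, edgeR adjusted p 0.0485). Without mutant replicate 1, 2 or 3 or WT replicate 2 or 3 its adjusted p was 0.114 to 0.370, which ends the call. Its copy Gm3608 (chr1:105455971-105458829, + strand) rose, at 41.1, 77.3 and 67.0 CPM against 6.87, 5.54 and 4.33 CPM (log2 fold change 3.47 ± 0.26 SE, adjusted p 5.19e-07). The family sums were 124 ± 26.2 and 133 ± 26.4 CPM (SD, n = 3), and the copies took 43.3% to 53.3% of the family in the mutant and 3.12% to 7.09% in WT libraries. Rpl34, a protein of the large ribosomal subunit, stood at 153, 228 and 239 CPM against 303, 420 and 377 CPM without passing the test, while Rpl34-ps1 (chr6:71124610-71124963, + strand) rose from 25.4, 18.5 and 16.0 CPM in WT to 232, 156 and 355 CPM in mutant libraries (log2 fold change 3.63 ± 0.38 SE, adjusted p 5.33e-05). The Rpl34 family summed to 455 ± 121 CPM in the mutant and 387 ± 54.3 CPM in WT libraries (SD, n = 3).

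Gm5900 (chr7:104949915-104950289, - strand), a copy of Lamtor3, rose from 0.496, 0.289 and 0.195 CPM in WT to 4.97, 3.30 and 6.83 CPM in mutant libraries (log2 fold change 3.93 ± 0.59 SE, edgeR adjusted p 0.00787), and the Lamtor3 family summed to 19.04 ± 2.91 and 18.8 ± 2.74 CPM (SD, n = 3). Hist1h2al (chr13:51202727-51203065, - strand), a histone H2A gene similar to the Hist2h2a genes of chromosome 3, rose from 0.305, 0 and 0 CPM to 10.0, 4.28 and 18.6 CPM (adjusted p 0.0195). The calls were lost for Gm5900 without WT replicate 3 (adjusted p 0.132) and for Hist1h2al without WT replicate 2 or 3 (0.153 and 0.272). The histone family summed to 68.5 ± 28.6 and 59.6 ± 19.9 CPM (SD, n = 3). Gm12666, a copy of Larp7 that is annotated as coding, stood at 2.76, 3.15 and 2.25 CPM in the mutant and 0 in every WT library and was not called (adjusted p 0.204). For all 6 families the summed level gave a log2 fold change between -0.10 and 0.23 and an edgeR adjusted p of 0.955 or above. With near-copies summed before testing, 1 gene in all was called, Fcrls.

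**Figure D5:**
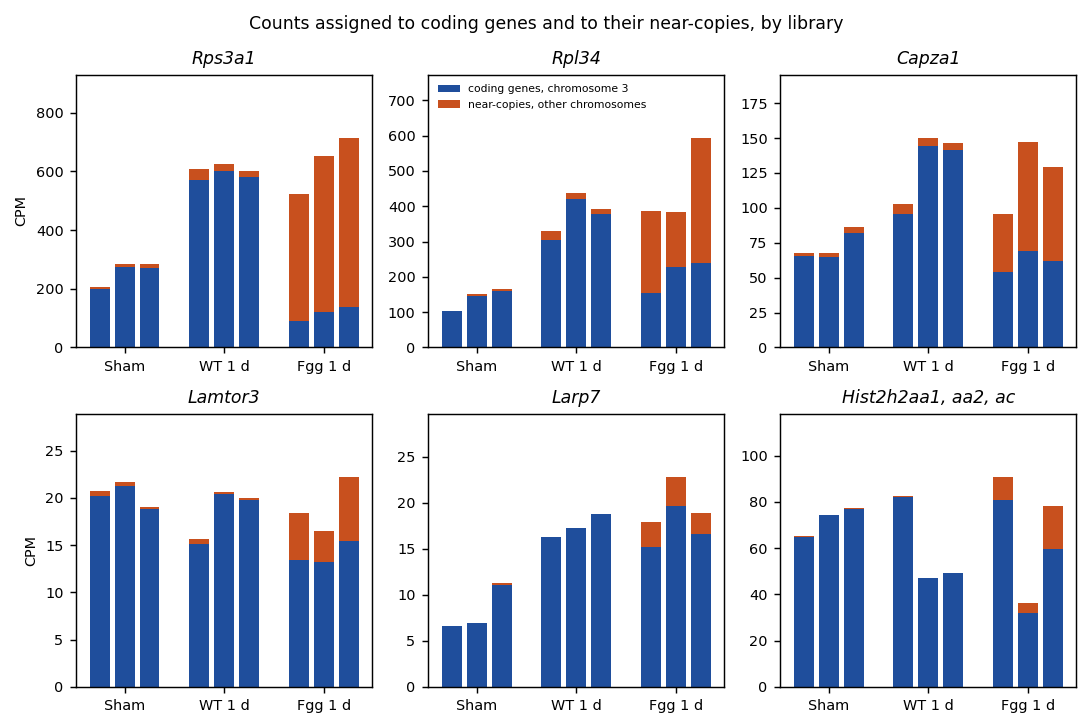
CPM of the chromosome 3 parent and of its copies, stacked, in each of the 3 sham, 3 WT and 3 mutant microglia libraries for 6 families. The sum for Rps3a1 averages 630 CPM in the mutant and 611 CPM in WT, while the copies hold 80.9% to 82.5% of it in the mutant and 3.15% to 6.51% in WT.

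The same genotype contrast can be read in microglia at 7 d and in infiltrating CD45hiCD11b+ myeloid cells at 1 d, with 3 libraries per group in each. At 7 d, 9 genes were called (0.0378%), and all 9 were on chromosome 3 or near-copies. In infiltrating myeloid cells 108 genes were called (0.453%). Called directions were shared by Fcrls, Rps3a1 and the 6 pseudogenes, each of which was called in all 3 contrasts. Microglia and myeloid cells at 1 d may come from the same brains, so their values are set side by side only. Ptgs2 had a log2 fold change of -0.93 at 7 d and -1.004 in myeloid cells (edgeR adjusted p 1 and 0.334), and Inhba -2.25 and -1.31, none past the test. The homeostatic list had medians of 0.10 at 7 d and 0.36 in myeloid cells, the chemokine list -0.53 and -0.05, and the interferon list -0.29 and 0.53.

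Whether an effect differed between contrasts was tested directly. Between 1 d and 7 d microglia the genotype effect differed for 0 genes (0%) with edgeR's quasi-likelihood test, where 653 genes had an unadjusted p under 0.05 and DESeq2 called 33. Between microglia and infiltrating myeloid cells at 1 d it differed for 11 genes (0.0462%) in a fit that treats the 12 libraries as independent, although cells of both kinds may come from the same brains, none of which is among the called genes of the microglial contrast. For Ptgs2 and Inhba no difference between time points or cell populations passed the test.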

How the data were processed

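RNA was measured in 21 libraries, 3 per group, of which the 3 mutant and 3 WT microglia libraries at 1 d were compared. The authors mapped paired reads to GRCm38 in the nf-core/rnaseq pipeline with STAR and salmon, and deposited expected counts per gene from salmon, scaled from transcript shares to the mapped total, so that gene length is divided out. Per the submitters' processing notes, R 4.2.0 and DESeq2 1.36.0 were used downstream. The deposited values were rounded to whole counts here. Of 45706 genes, 45143 were matched to an annotation of the same build.

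Genes with at least 5 counts over all libraries were tested with edgeR 4.0.16 (TMM factors, quasi-likelihood test, Benjamini-Hochberg adjustment, R 4.3.3) in 1 fit of all 21 libraries with a mean per group. Calls needed an adjusted p under 0.1 and a log2 fold change beyond 1 in either direction, as in the study's genotype comparisons. The common biological coefficient of variation was 0.643 with 14 residual degrees of freedom. CPM used TMM-scaled library sizes. Near-copies were coding or pseudogene transcripts aligned by blastn 2.17.0 at 95% identity or more over 80% of the shorter sequence. Replicates are separate pools of brains, and no pair of libraries agreed within counting noise.

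The members and lists were chosen with earlier results of these data known, and from general knowledge. Named genes were every called gene, the 12 coding genes of smallest p in each direction off chromosome 3 whose groups do not overlap and whose mean is at least 1 CPM, up to 3 genes of smallest p per list, Fgg, Fga, Fgb, Itgam, Itgb2 and the 6 genes the study names, and the 10 coding genes of smallest p on chromosome 3.

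Groups share replicate numbers. Over 11727 genes, deviations from the group means correlated at 0.341, 0.116 and 0.122 between mutant and WT libraries of the same number. Mutant replicate 2 with WT replicate 3 gave 0.0997, and mutant replicate 3 with WT replicate 2 gave 0.0516. Only replicate 1 stood apart, so this check cannot show that the numbers pair the samples, and no label says so. The block by replicate number is therefore an alternative fit only. The blocked fit is given where it changed a call. In a check on simulated data of 22352 genes for this comparison, the test called 13.6% of genes changed 2-fold, 70.9% of genes changed 4-fold and 89.1% of genes changed 8-fold, with 9 false calls. Alternatives were DESeq2 1.42.0 (its test or its size factors), other filters on counts, fewer libraries, the block, removal of ribosomal RNA, pseudogenes or chromosome 3, robust estimation, a stricter threshold and each library left out. Summing near-copies was chosen after seeing the data.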

Additional observations from a re-analysis of the deposited data

Results flagged for a closer look

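The genotype effect differed between microglia and infiltrating myeloid cells at 1 d for 11 genes, by edgeR's test of the difference itself at a Benjamini-Hochberg adjusted p under 0.1. All 11 have low levels, with means over the 12 libraries of 0.297 to 6.97 CPM. For Gm26723, a lincRNA on chromosome 12, the log2 fold change was -0.17 in microglia and -3.48 in myeloid cells (difference 3.31, adjusted p 0.0317), and for Cryba4 it was 0.35 and -2.70 (adjusted p 0.0451). Zfp286 stood at 1.17 and -6.96 (adjusted p 0.0343), Mymk at 0.52 and -6.45 (adjusted p 0.0376), and Fam92a at 0.19 and 4.33 (difference -4.14, adjusted p 0.0837). The part of depth and of genes at 0 in these differences was not tested.
Cells of both kinds may come from the same brains, and the test treated all 12 libraries as independent.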

How the results depend on the processing

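The number of calls depended on the library set and the tool. DESeq2's Wald test gave 104 calls in all, 51 off chromosome 3 and without a near-copy, 18 on chromosome 3 and 41 near-copies, and for differences of the genotype effect 33 with 7 d microglia and 259 with myeloid cells. The 6 libraries alone gave 8 calls, 0 of them off chromosome 3 without a near-copy and 2 on chromosome 3, and the 15 microglia libraries gave 1 off chromosome 3 without a near-copy. The replicate block gave 4 such calls and robust estimation 1, and at an adjusted p under 0.05 there were 0 such calls and 6 differences with myeloid cells. Without pseudogenes there were 5 calls, 1 off chromosome 3 without a near-copy and 2 near-copies. Without chromosome 3 there were 7 calls, 1 off chromosome 3 without a near-copy and 0 on it. With near-copies summed there was 1 call, 0 off chromosome 3 without a near-copy, 1 on chromosome 3 and 0 near-copies. Leaving out 1 library gave 6 (without WT replicate 3) to 89 calls (without WT replicate 1), with 0 to 53 off chromosome 3 without a near-copy, 2 to 17 on chromosome 3, 5 to 25 near-copies, 0 to 0 differences with 7 d microglia and 0 to 13 with myeloid cells.

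Of list medians, DESeq2's test gave 0 for activin, 0.18 for complement and 0.0034 for lymphocyte markers, and its size factors 0, 0.18 and 0.0051. With filterByExpr the medians were -0.13 for cytokines, 0.0582 for activin, 0.12 for complement, 0.24 for lymphocyte and -0.16 for astrocyte markers. The 6 libraries alone gave 0.0727 for activin and 0.16 for complement, the 15 microglia libraries 0.0826 for activin and 0.48 for lymphocyte markers, and the block 0.0923 for activin and -0.24 for coagulation. With 1 library left out the medians ranged from -0.31 to 0.01 for cytokines, -0.98 to -0.48 for chemokines, 0 to 0.22 for prostaglandin, 0 to 0.0694 for activin, -0.39 to -0.20 for reactive oxygen, -0.13 to 1.06 for interferon, -0.0746 to 2.07 for guanylate-binding, 0.15 to 0.40 for antigen presentation, -1.03 to -0.52 for immediate-early, -0.22 to -0.0524 for NF-kB, -0.20 to -0.0122 for adhesion, -0.82 to -0.24 for coagulation, -0.24 to -0.11 for cell death and 0.0479 to 0.23 for complement genes. For markers they ranged from -1.61 to 0.50 for monocytes, -1.67 to 0.59 for neutrophils, -0.57 to 0.0828 for border macrophages, 0 to 0.14 for lymphocytes, -1.45 to 0.78 for red cells, -1.01 to -0.34 for neurons, -0.71 to -0.18 for astrocytes, -1.05 to -0.42 for oligodendrocytes and -0.29 to 0.80 for endothelial cells. Among 120 named genes, 9 values changed sign under an alternative, all in genes without a call (Cd3g, Gad1, Itgb2, Itgam, Hbb-bt, Hbb-bs and Alas2). The block changed no other call than those given. Genes near 3 counts, such as Inhba in the mutant, are limited by depth.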
